A study of Mus musculus with 24 samples.

Results

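Skin injected with the peptide LL37 was compared with control skin over all genes. The comparison rests on 12 of the 24 libraries of the series, 6 of control skin and 6 of model skin, taken by their sample titles, and covers 45777 genes, of which 19526 had enough counts to be tested. The animals were female BALB/c mice of 6 weeks. In the model, LL37 at 320 µM was injected into the dermis in volumes of 40 µL, 2 times a day over 2 days. The experiment also used oral gabapentin at 100 mg/kg from day 3, but no label says to which animals, so its part in any difference cannot be told apart. What control skin was injected with and the day of skin collection are not stated in the labels used here. Those labels do not tie libraries to separate animals, so each p-value reflects no more than the spread among the samples, which may be technical. Polyadenylated RNA of whole skin was sequenced. In such bulk samples more cells of a type and more RNA per cell cannot be told apart, nor can fewer cells and less RNA per cell.

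LL37 is the active fragment of the human cathelicidin, an antimicrobial peptide of skin and neutrophils that accumulates in rosacea. It binds nucleic acids and carries them to innate receptors, attracts leukocytes and activates mast cells. Whole skin holds epidermis and hair follicles, dermal fibroblasts, vessels, nerves, resident immune cells, fat and, in mice, a sheet of striated muscle under the dermis called the panniculus carnosus.

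Total counts were 45238735 to 64547448 in control and 46549562 to 63531350 in model libraries. Levels are given as CPM, counts scaled to library size by edgeR's TMM factors. "Rose" and "fell" are used of genes that passed 0.05 in edgeR's quasi-likelihood test after Benjamini-Hochberg adjustment over all genes tested. "Stable" is used of genes called in the same direction in all 12 fits that left out 1 library each. Keratinocyte genes that define epidermis were present in every library, with Krt5 at 3189 CPM or more, and the sensory neuron gene Mrgprd had no counts. Some libraries stood apart. Control 2 held 1305 CPM of summed hair shaft and root sheath genes, against 41143 to 64154 CPM in the other controls and 2134 to 33191 CPM in the model libraries. Model 2 held 518 CPM of B cell and plasma cell genes, and the remaining model libraries 33.6 to 62.3 CPM. Model 1 held 21765 CPM of adipocyte genes, and the other model libraries at most 9812 CPM. Model 5 was the lowest of the 6 model libraries for 1834 of the 2755 rising genes.

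**Figure D1:**
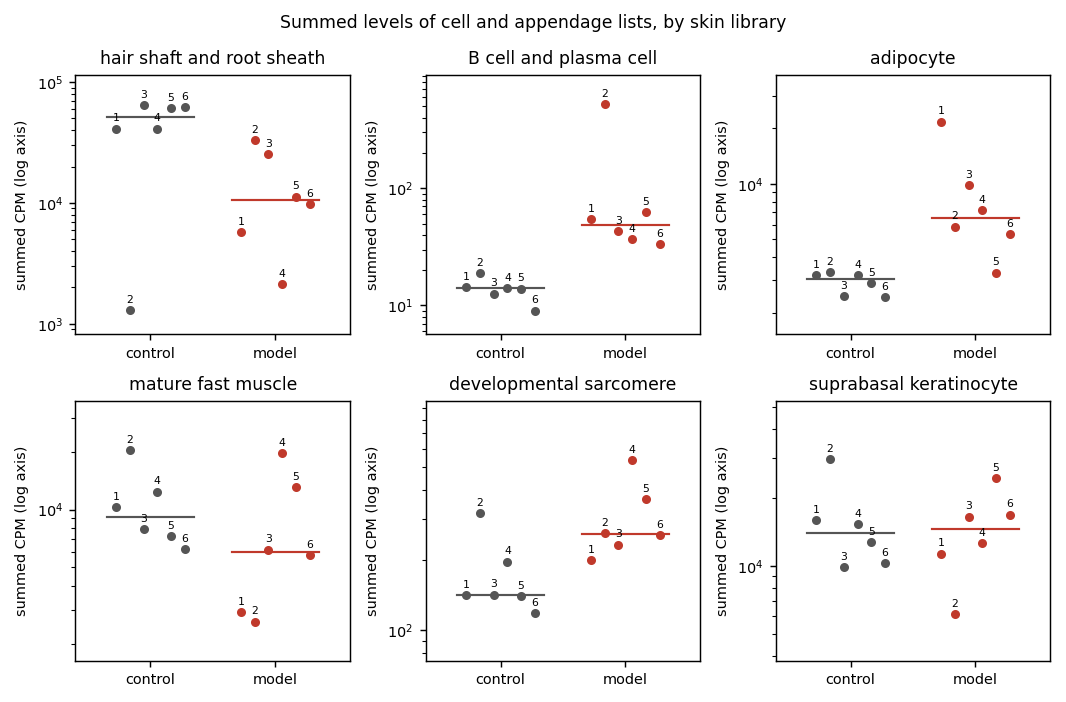
Summed CPM (log axis) of 6 gene lists in each skin library, with control libraries in grey, model libraries in red, the library number above each point and a line at the group median. Control 2 is lowest for hair genes at 1305 CPM, model 2 is highest for B cell genes at 518 CPM and model 1 is highest for adipocyte genes at 21765 CPM.

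The skin response was mainly a rise of genes with low or middling levels. Of the genes tested 19.9% changed (3892), with 14.1% rising (2755) and 5.82% falling (1137). Among rising genes the median log2 fold change was 1.2, and 1642 rose at least 2-fold, 679 at least 4-fold and 247 at least 8-fold. The median over falling genes was -0.49 on the log2 scale, and 97 fell at least 2-fold. With the tested genes divided by mean level into 5 equal classes, the share rising was, from the lowest class to the highest, 10.1%, 19.0%, 18.3%, 13.2% and 10.1%. The share falling went from 1.64% in the lowest to 12% in the highest class.

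The rising set held up better than the falling set when libraries were left out. Of the rising genes 2011 were stable (10.3% of genes tested), and of the falling genes 280 (1.43%). The number falling was 2554 without control 2, 442, 423 and 444 without control 3, 5 and 6, and 516, 707, 308 and 496 without model 1, 3, 4 and 6. Without both control 2 and model 2, 3931 genes rose and 2803 fell. Rising genes made up 70.8% of calls, against 62.2% with upper-quartile scaling, 56.8% in DESeq2, 50.1% when all 24 libraries shared 1 fit, and 86.2% and 85.5% with limma on log2 TPM with a pseudocount of 0.1 and 1. All model values lay above all control values for 1416 genes (7.25%) and below for 281 (1.44%). Protein-coding genes rose in 2506 of 15863 cases (15.8%) and fell in 988 (6.23%). Long noncoding RNA genes rose in 167 of 2137 (7.81%) and fell in 92 (4.31%), against 14.1% and 5.82% over all genes.

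**Figure D2:**
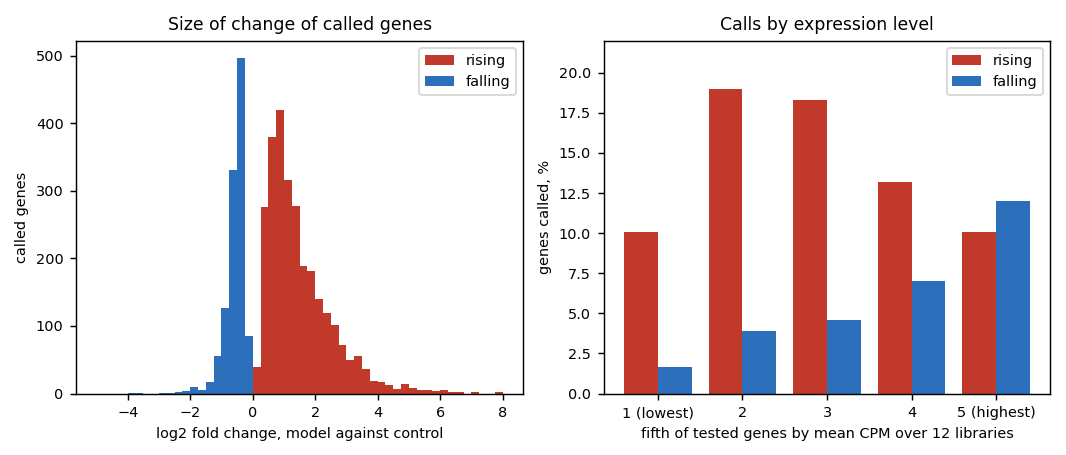
Left, number of called genes by log2 fold change in steps of 0.25 (rising in red, falling in blue, with changes beyond the axis counted in the end bins). Right, share of tested genes called in each of 5 classes by mean CPM. Rising genes extend far to the right, while falling genes sit close to 0 and take their largest share, 12%, among the genes of highest level.

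The promoters of 5 genes are shown first, each from a gene that the results turn on, to show the motif classes by which the changed genes differed. They are RefSeq sequences of GRCm38.p6, 250 bases before to 50 bases after the first listed start, 5′ to 3′ on the gene's strand, and capitals mark the motif searched. Promoters were matched for 14221 of the 19526 genes tested. Ifi206 and Ifi214 are neighbouring interferon-inducible genes of the family of DNA sensors that includes Aim2. Their promoters (chr1:173491269-173491568 and chr1:173535908-173536207, minus strand) carry the interferon-stimulated response element (ISRE), GAAANNGAAA, at positions -40 and -79 from the start. B2m, the light chain of MHC class I (chr2:122147437-122147736, plus strand), carries it at position -139.
Ifi206: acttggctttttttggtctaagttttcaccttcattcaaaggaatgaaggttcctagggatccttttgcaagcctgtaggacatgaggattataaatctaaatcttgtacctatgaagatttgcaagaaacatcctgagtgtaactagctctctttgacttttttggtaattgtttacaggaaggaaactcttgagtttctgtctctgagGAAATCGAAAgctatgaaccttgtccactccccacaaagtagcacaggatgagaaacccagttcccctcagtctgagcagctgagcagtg
Ifi214: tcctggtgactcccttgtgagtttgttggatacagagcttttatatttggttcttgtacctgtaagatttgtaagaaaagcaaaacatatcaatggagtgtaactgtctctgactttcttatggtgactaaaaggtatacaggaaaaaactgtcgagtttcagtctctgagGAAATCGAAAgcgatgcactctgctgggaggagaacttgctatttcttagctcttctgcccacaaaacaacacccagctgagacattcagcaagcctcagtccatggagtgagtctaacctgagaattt
B2m: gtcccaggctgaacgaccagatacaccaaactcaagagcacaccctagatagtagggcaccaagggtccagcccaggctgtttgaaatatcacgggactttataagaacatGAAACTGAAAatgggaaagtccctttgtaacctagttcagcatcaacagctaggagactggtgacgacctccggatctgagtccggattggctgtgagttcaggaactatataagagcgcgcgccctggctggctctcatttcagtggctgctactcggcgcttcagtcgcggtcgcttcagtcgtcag
The marked letters are the same in Ifi206 and Ifi214, and B2m has other letters at the free positions. Chrng, the embryonic receptor chain of the neuromuscular junction (chr1:87205561-87205860, plus strand), carries CAGCTG, an E-box of the kind that myogenic factors bind, at positions -155 and -132. Grhl1, a grainyhead-like transcription factor of keratinocytes (chr12:24572037-24572336, plus strand), stands for the falling genes, with the GC box, GGGCGG, read here on the other strand at positions -169 and -157.
Chrng: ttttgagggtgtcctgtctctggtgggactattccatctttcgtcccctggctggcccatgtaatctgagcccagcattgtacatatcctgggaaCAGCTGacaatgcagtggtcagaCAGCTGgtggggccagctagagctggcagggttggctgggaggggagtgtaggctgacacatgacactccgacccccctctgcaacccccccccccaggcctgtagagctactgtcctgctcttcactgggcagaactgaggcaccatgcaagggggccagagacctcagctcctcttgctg
Grhl1: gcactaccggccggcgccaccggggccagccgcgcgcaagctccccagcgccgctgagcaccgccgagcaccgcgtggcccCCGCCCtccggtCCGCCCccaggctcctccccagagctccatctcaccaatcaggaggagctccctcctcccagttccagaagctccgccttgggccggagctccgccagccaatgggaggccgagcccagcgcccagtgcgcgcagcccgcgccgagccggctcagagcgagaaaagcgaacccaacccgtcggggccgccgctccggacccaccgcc
A match is only a match of letters and says nothing of whether a factor binds there.

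Genes that rose strongly had promoters poor in CpG. The median number of CpG pairs per 300-base promoter was 4 among the 495 promoters of genes that rose at least 4-fold, 18 among all 14221 and 21 among the 831 of falling genes. Their median GC content was 50%, 59.3% and 61.7%. An ISRE stood in 13.1% of the promoters of genes that rose at least 4-fold, in 3.15% of all and in 2.65% of those of falling genes, with both strands searched. The core bound by PU.1, GAGGAA, a motif of myeloid genes that can overlap an ISRE, stood in 44.2%, 27.4% and 25.4%. The AP-1 motif TGANTCA stood in 11.3%, 6.05% and 7.10%, and the TATA box TATAAA in 17.2%, 9.39% and 6.62%. The E-box CAGCTG stood in 22%, 16.2% and 13.8%. Motifs that contain CpG were rarer among strongly rising genes than over all promoters. The GC box stood in 22.2% of promoters of strongly rising genes, 56.0% of all and 65.3% of those of falling genes. In that order the ETS motif CCGGAAG stood in 4.85%, 14.7% and 15%, and the CRE TGACGTCA in 0.202%, 2.74% and 2.65%. The GRHL core CCGGTT, named for grainyhead-like factors, stood in 2.63%, 9.63% and 8.90%. Among falling genes only the GC box of these was well above its share over all promoters. The kappaB motif stood in 5.66% of promoters of strongly rising genes, 5.18% of all and 4.57% of those of falling genes. Its share was 6.41% among all rising, 7.20% among stable rising and 2.94% among stable falling genes (6 of 204). For the GAS element TTCNNNGAA the shares were 8.28% in strongly rising genes, 7.17% in all and 5.54% in falling genes. These shares are descriptions without a test.

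**Figure D3:**
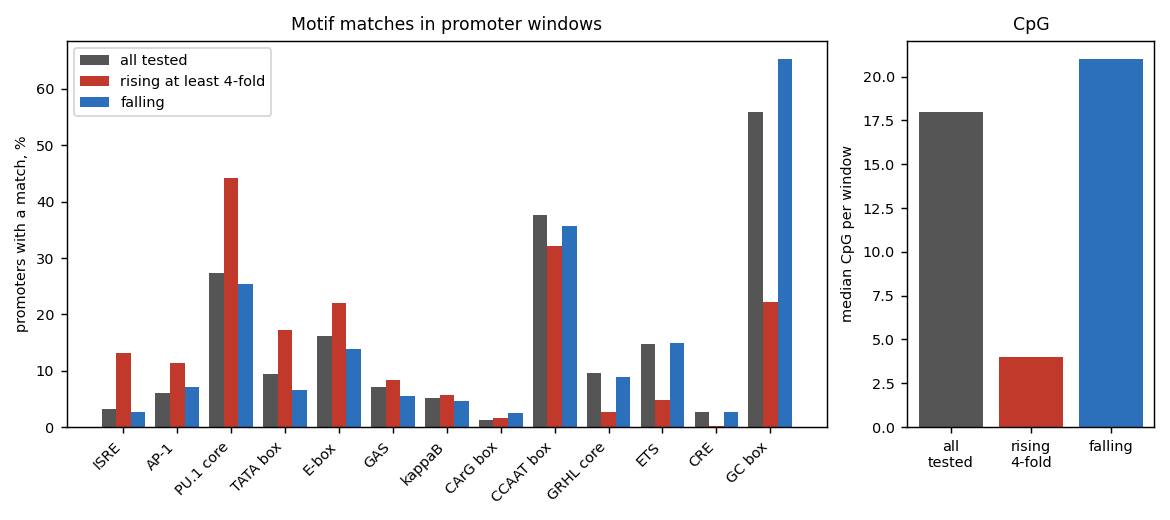
Left, share of promoters (%) with at least 1 match to each of 13 motifs on either strand, for all tested genes (grey, 14221), genes rising at least 4-fold (red, 495) and falling genes (blue, 831). Right, median CpG pairs per 300-base promoter, which was 18, 4 and 21.

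The functional description below uses 82 lists of genes by pathway or cell type. Members rose more often than the 14.1% over all genes in 46 lists, and fell more often than 5.82% in 26. In 26 lists at least 50% of the members tested rose, while in edgeR's fit of all 12 libraries the list of tight, gap and adherens junctions alone had at least 50% falling. That count of 1 list was 6 without control 2, where 15 of 21 hair shaft, 9 of 13 melanocyte and 19 of 28 junction genes fell, and 4 in DESeq2. In 8 lists no member passed in edgeR in either direction. The hair shaft list is one of these, with all 21 estimates below 0, 6 genes at an unadjusted p below 0.05 and 6 called by DESeq2. The plot of calls by list sets these shares beside those over all genes.

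**Figure D4:**
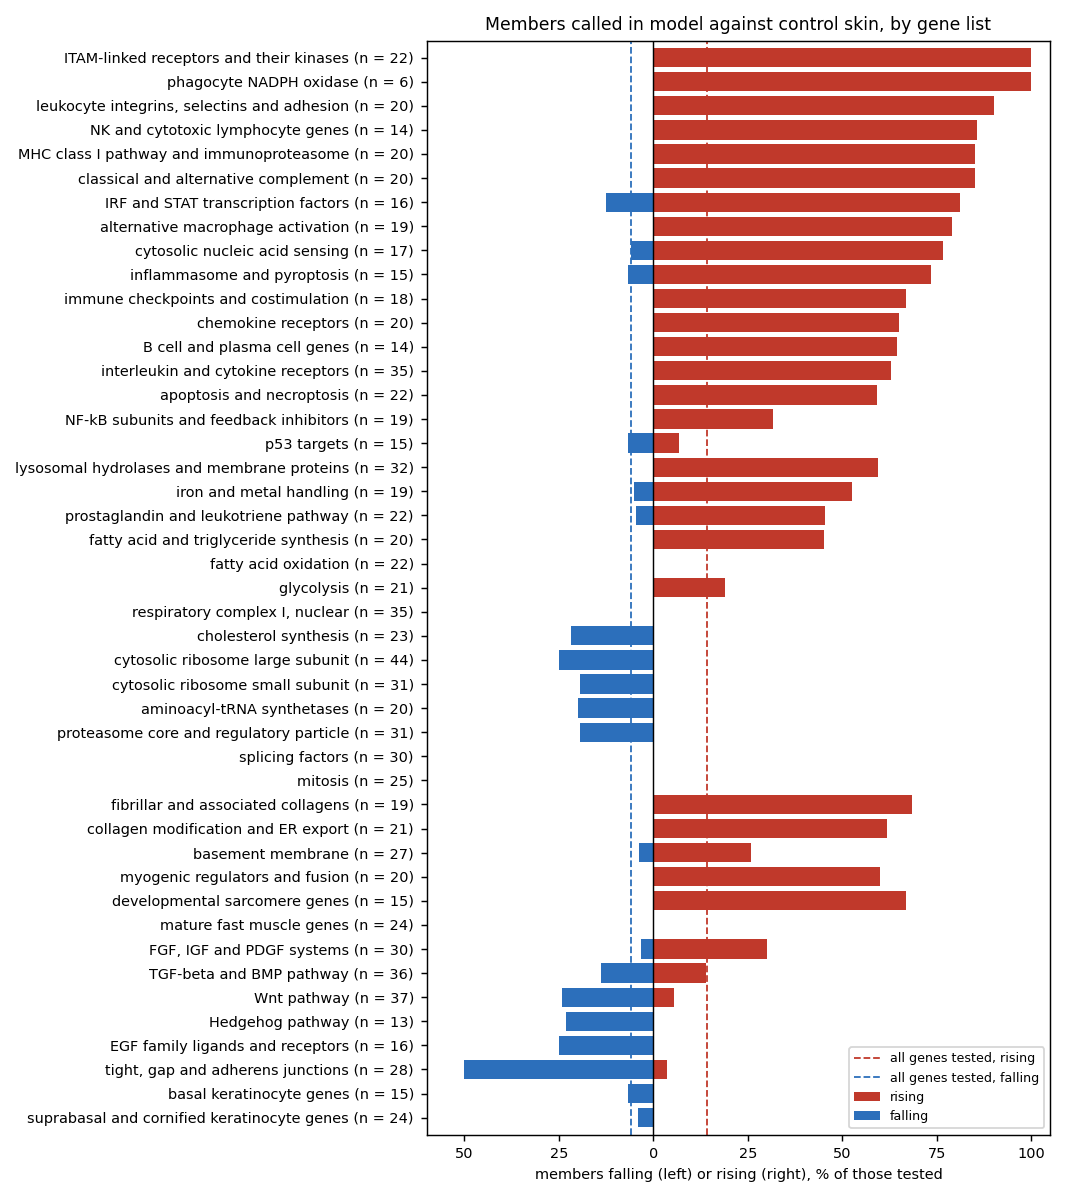
Share of tested members (%) rising (red, to the right) and falling (blue, to the left) in 45 of the 82 lists, with the number tested in brackets and dashed lines at the shares over all genes, 14.1% rising and 5.82% falling. Immune lists reach far past the line on the right, and junction genes reach 50% on the left.

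Receptors that phagocytes use to sense particles and immune complexes rose together with their signalling chain. All 22 tested members of the list of receptors linked to the activating ITAM motif and their kinases rose, 19 of them stable, with a median log2 fold change of 2.61 against -0.02 over all genes. Fcgr4, an activating receptor for IgG, was 0.460 to 1.51 CPM in control (median 0.854) and 5.21 to 30.0 CPM in model libraries (median 21.9). The groups did not overlap, with model 5 lowest of the model libraries. Fcgr4 rose 22.1-fold (log2 fold change 4.47, SE 0.48, edgeR adjusted p = 0.000548). The adaptor Pik3ap1 rose 10.9-fold to 53.1 ± 23.7 CPM (SD, n = 6).

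The 6 subunits of the phagocyte NADPH oxidase, which makes superoxide in the phagosome, all rose and were stable, with no overlap between groups. Cybb, its catalytic subunit, was 3.93 to 13.9 CPM in control (median 8.04) and 22.3 to 127 CPM in model libraries (median 85.5). Again model 5 was the lowest model library and still above every control. Cybb rose 9.70-fold (edgeR adjusted p = 0.000582), and the small GTPase Rac2 and the cytosolic subunit Ncf1 rose 10.1-fold and 6.63-fold.

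Complement, a cascade of plasma proteins that opsonises particles and recruits leukocytes, rose in 17 of 20 genes tested, 15 of them stable. Cfb, of the alternative pathway, rose 7.48-fold from 28.9 ± 7.74 to 216 ± 97.1 CPM. The central component C3 rose 4.99-fold from 139 ± 59.9 to 693 ± 329 CPM. C3ar1, the receptor for the C3a fragment, was 3.03 to 15.5 CPM in control (median 6.36) and 27.4 to 156 CPM in model libraries (median 125). Its groups did not overlap, and it rose 14.9-fold (edgeR adjusted p = 0.000582). The receptor for C5a, C5ar1, rose 5.66-fold. The inhibitors Cd55 and Cd46 and the lectin pathway protease Masp1 did not pass.

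Cytosolic sensors of foreign or misplaced nucleic acid rose in 13 of 17 genes, all 13 stable, and Irf3 fell. Dhx58, a regulator of RNA helicase sensors, rose 10.4-fold to 27 ± 12.6 CPM, and Zbp1, a sensor of Z-form nucleic acid that can start necroptosis, rose 13.7-fold to 45.9 ± 22.9 CPM. Genes that restrain such sensing rose as well, with Adar, an RNA editing enzyme, up 1.67-fold and Samhd1, which depletes nucleotides, up 3.31-fold. Of 12 genes named as Toll-like receptors, 11 rose, including Tlr9, a receptor for CpG DNA. Tlr9 was 0.558 to 2.23 CPM in control (median 1.03) and 4.06 to 16.6 CPM in model libraries (median 12.5), without overlap, and rose 9.40-fold (edgeR adjusted p = 0.000553). The RNA receptors Tlr13, Tlr7 and Tlr8 rose 12.7-fold, 5.96-fold and 5.34-fold.

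Transcription factors of the interferon response rose in 13 of 16 members, 10 of them stable. Irf7, which amplifies type I interferon production, was 9.6 to 15 CPM in control (median 10.4) and 34.3 to 258 CPM in model libraries (median 164). Every model library was above every control, model 5 being lowest and model 1 highest. Irf7 rose 13.6-fold (edgeR adjusted p = 0.000548), and Stat2 2.62-fold. Irf5, which acts below Toll-like receptors, rose 2.07-fold, from 22.2 ± 1.55 to 46.2 ± 9.26 CPM. In this list 2 genes fell, neither of them stable. Irf3, which is active through phosphorylation rather than abundance, fell by 0.20 on the log2 scale (edgeR adjusted p = 0.0488), and its call held in 1 of the 12 fits without a library. Stat3, singled out after its value was seen because no other member failed to pass, had a log2 fold change of 0.15 (SE 0.18, edgeR adjusted p = 0.554), from 221 ± 51.0 to 245 ± 48.6 CPM.

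Among NF-kB subunits and feedback inhibitors 6 of 19 genes rose (31.6%, against 14.1% over all genes) and 0 fell. That share was below the 81.2% of the interferon transcription factor list, and the NF-kB median was 0.36 on the log2 scale. Tnip3, an inhibitor of the pathway, rose 3.70-fold and Nfkbie, an IkB protein, 2.17-fold, but from low levels of 1.02 ± 0.230 and 6.13 ± 1.2 CPM. The subunit gene Nfkb2 rose 1.42-fold and the ubiquitin ligase Birc3 1.59-fold.

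Inflammasome and pyroptosis genes rose in 11 of 15 cases. Naip5, a sensor of bacterial flagellin, rose 5.55-fold, Mefv, which encodes pyrin, 5.71-fold, and Gsdmd, the pore-forming executioner of pyroptosis in macrophages, 3.41-fold from 8.32 ± 2.33 to 28.3 ± 8.09 CPM. Gsdma, the gasdermin of keratinocytes, was the member that fell (1.74-fold, edgeR adjusted p = 0.0378), and its call held in 4 of 12 fits without a library. Among 22 apoptosis and necroptosis genes 13 rose, including the necroptosis pore gene Mlkl (2.86-fold), Casp8 (1.8-fold) and the survival gene Bcl2a1b (7.04-fold), whose near-identical copies can share reads. Of 15 p53 targets 1 rose (Eda2r) and 1 fell (Sesn2), neither stable. These were 6.67% each, against 14.1% rising and 5.82% falling over all genes.

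Antigen presentation by MHC class I rose in 17 of 20 genes, with smaller folds than the phagocyte lists (median log2 fold change 0.94). B2m was 285 to 884 CPM in control (median 464) and 913 to 1645 CPM in model libraries (median 1032). The groups did not overlap, but control 2, the highest control at 884 CPM, came close to the lowest model library. B2m rose 2.21-fold (edgeR adjusted p = 0.00892). The inducible proteasome subunits Psmb10 and Psmb8 rose 2.88-fold and 2.81-fold, and Tapbp, which loads peptide onto class I, 1.96-fold. The constitutive proteasome went the other way, as given below with protein turnover. Among 18 checkpoint and costimulatory genes 12 rose, including the costimulators Cd40 (3.99-fold) and Cd80 (3.24-fold) and the inhibitory galectin Lgals9 (3.07-fold).

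Adhesion molecules by which leukocytes leave the blood rose in 18 of 20 genes, 17 of them stable and 17 without overlap. Itgb2, the shared chain of the leukocyte integrins, was 6.92 to 16.7 CPM in control (median 11.2) and 28.9 to 137 CPM in model libraries (median 101). Model 5 was again lowest, above all controls, and Itgb2 rose 8.19-fold (edgeR adjusted p = 0.000548). Fermt3, the kindlin that activates integrins in blood cells, rose 4.06-fold, and Coro1a, a leukocyte actin regulator, 5.81-fold. Chemokine receptors rose in 13 of 20 genes, and in 8 without control 3, 5 or 6. Ccr3, the eotaxin receptor, rose 20.9-fold, from 0.442 ± 0.175 to 9.26 ± 5.97 CPM. Of 35 cytokine receptor genes 22 rose, with the TNF receptor Tnfrsf1b up 4.00-fold, the interferon receptor chain Ifnar2 up 2.91-fold and the GM-CSF receptor chain Csf2ra up 2.85-fold.

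Lymphocyte and granulocyte genes rose from low levels. Of 14 tested genes of NK and cytotoxic lymphocytes 12 rose, all 12 stable. The granule protease Gzma was 0.120 to 0.424 CPM in control (median 0.238) and 1.35 to 9.14 CPM in model libraries (median 5.37), without overlap, and rose 19.7-fold (edgeR adjusted p = 0.000548). The activating receptors Klrk1 and Ncr1 rose 5.78-fold and 8.68-fold. Of 8 eosinophil and basophil genes 7 rose. Siglecf, a lectin of mouse eosinophils, was 0.295 to 0.786 CPM in control (median 0.374) and 1.09 to 7.82 CPM in model libraries (median 4.56), and rose 10.2-fold (edgeR adjusted p = 0.000553). Of 13 tested genes of dermal γδ T and innate lymphoid cells 3 rose, and 7 without control 2, including the IL-7 receptor Il7r (3.72-fold), and Gata3, a transcription factor that keratinocytes also express, fell 1.70-fold with no overlap between groups.

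The size of the rise in B cell genes, more than its direction, rested on 1 library, model 2. Their summed level was 9.05 to 18.8 CPM in control and 33.6 to 62.3 CPM in the model libraries other than model 2. Of 14 tested genes 9 rose, 6 of them stable, and all 14 estimates were above 0. With 1 library left out, 6 to 10 rose. The count was 4 in DESeq2, 3 with limma on log2(TPM + 1) and 2 with a filter of 1 CPM, which tests fewer genes. Cd22, an inhibitory lectin of B cells, was at most 0.444 CPM in control (median 0.123) and 2.60 to 56.2 CPM in model libraries (median 3.94). Model 2 held the 56.2 CPM and the next library 6.12 CPM, and every model library was above every control. Cd22 rose 70.3-fold (edgeR adjusted p = 0.00501), and 22.3-fold without model 2 (adjusted p = 0.00438). The antigen receptor chain Cd79b rose 24.1-fold, and 6.31-fold without model 2, and the IgM heavy chain Ighm 4.87-fold, and 3.19-fold without it. DESeq2 gave Cd22 and Cd79b no adjusted p, and with limma on log2(TPM + 1) Cd79b was not called (adjusted p = 0.0636).

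Genes of alternatively activated and tissue macrophages rose in 15 of 19 cases. Spp1, the secreted matrix protein osteopontin, was 2.2 to 21.0 CPM in control (median 6.27) and 33.5 to 185 CPM in model libraries (median 119.7), without overlap, and rose 14.5-fold (edgeR adjusted p = 0.00121). Retnla, a secreted product of macrophages exposed to type 2 cytokines, rose 10.3-fold and the folate receptor Folr2, a marker of resident macrophages, 5.84-fold. Scavenger and apoptotic-cell receptors rose in 11 of 18 genes, among them Cd5l (23-fold), Msr1 (10.8-fold) and Stab1 (3.16-fold). Clotting and platelet genes rose in 11 of 22 cases, with the coagulation factors F10 and F7 up 11.1-fold and 10.5-fold from under 1 CPM and Vwf, which tethers platelets, up 2.00-fold from 20.1 ± 4.63 CPM.

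**Figure D5:**
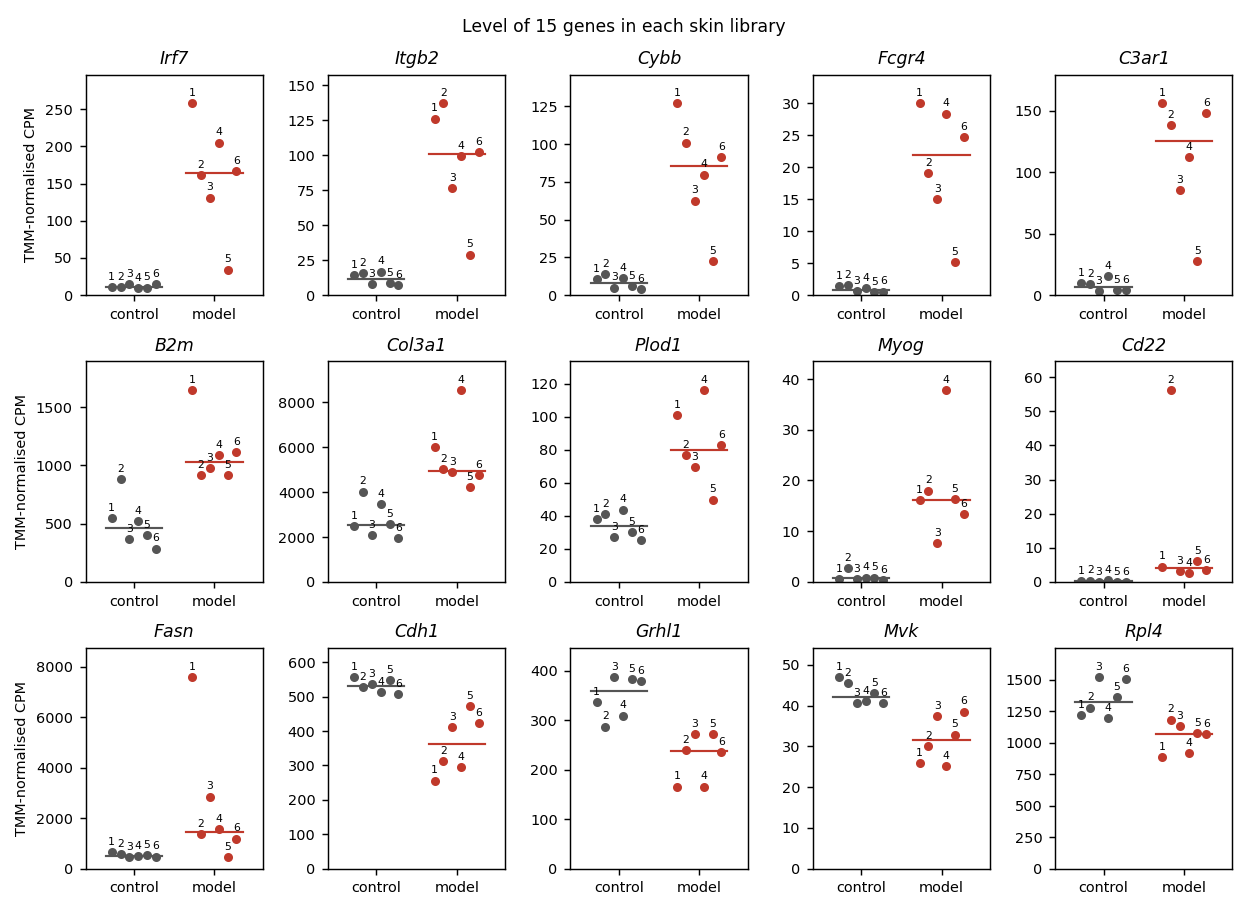
TMM-normalised CPM of 15 genes in each library, with control libraries in grey, model libraries in red, the library number above each point and a line at the group median. Model 5 is lowest of the model libraries for Irf7, Itgb2, Cybb, Fcgr4 and C3ar1, Cd22 and Fasn are far highest in model 2 and model 1, and the 6 model libraries lie below the 6 controls for Cdh1, Grhl1, Mvk and Rpl4.

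Lysosomal genes rose in 19 of 32 cases, all 19 stable, and none fell. Ctss, a cysteine protease that trims the class II invariant chain, rose 10.4-fold, from 44.4 ± 20.4 to 459.8 ± 182 CPM. The hydrolases Gusb and Hexa rose 3.09-fold and 2.58-fold. Psap, the precursor of the saposins that present lipids to hydrolases, was 589 to 814 CPM in control (median 726) and 894 to 2042 CPM in model libraries (median 1605), without overlap, and rose 2.2-fold (edgeR adjusted p = 0.000991).

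Iron genes rose in 10 of 19 cases, led by Slc11a1, the metal transporter of phagosomes, at 9.76-fold. The ferritin chains rose at high levels. Ftl1 was 299 to 386 CPM in control (median 342) and 445 to 1451 CPM in model libraries (median 1029), and Fth1 259.6 to 453 CPM (median 358) and 494 to 1118 CPM (median 721). Neither gene overlapped between groups, and they rose 2.99-fold and 2.18-fold (edgeR adjusted p = 0.000634 and 0.00226). Slc39a8, a zinc and manganese importer, was the member that fell, and its call held in 2 of 12 fits without a library.

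None of 35 nuclear genes of respiratory complex I rose or fell in edgeR (median log2 fold change 0.03), where 0 had an unadjusted p below 0.05 and DESeq2 called 0. None of 22 fatty acid oxidation genes passed in edgeR, where 3 had an unadjusted p below 0.05 and DESeq2 called 1. The 13 respiratory genes of mitochondrial DNA all had estimates above 0, with a median of 0.35, and none passed in edgeR, where 0 had an unadjusted p below 0.05 and DESeq2 called 0. Of 21 glycolysis genes 4 rose (19.0%, against 14.1% over all genes), and 2 without control 5 or 6. The median log2 fold change of the glycolysis list was 0.13. Hk3, the hexokinase of myeloid cells, rose 11.5-fold, from 1.79 ± 1.1 to 20.6 ± 10.2 CPM, and the regulatory enzyme Pfkfb3 2.35-fold. In itaconate and tryptophan metabolism 4 of 17 genes rose. Acod1, which makes itaconate in activated macrophages, was 0 to 0.340 CPM in control (median 0.119) and 0.363 to 4.72 CPM in model libraries (median 3.85), and rose 18.7-fold (edgeR adjusted p = 0.00417).

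Among 22 prostaglandin and leukotriene genes 10 rose and 1 fell, with the thromboxane synthase Tbxas1 up 11.4-fold, the prostacyclin synthase Ptgis 11.5-fold and the leukotriene genes Alox5ap and Ltc4s 5.61-fold and 4.95-fold. Fatty acid and triglyceride synthesis genes rose in 9 of 20 cases, and in 4 or 5 without control 1, 3, 4, 5 or 6 or model 3. Fasn, the fatty acid synthase, was 460.4 to 668 CPM in control (median 515) and 447 to 7586 CPM in model libraries (median 1464). Model 1, at 7586 CPM, was far above the next library at 2858 CPM, and model 5 lay below all controls. Fasn rose 4.66-fold (edgeR adjusted p = 0.0141), and 2.77-fold without model 1. It was not called with the hair score of each library as a covariate (adjusted p = 0.0537) or with a replicate block (adjusted p = 0.0588). Thrsp, an activator of lipogenesis, rose 20.4-fold, and 10.4-fold without model 1. The summed adipocyte list, 2434 to 3310.1 CPM in control and 3297 to 21765 CPM in model libraries, was highest in model 1 too, and its part in these values was not tested.

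Cholesterol synthesis went down instead, with 5 of 23 genes falling, 18 with estimates below 0 and a median log2 fold change of -0.33. The count was 3 without control 6 or model 4 and 11 without model 5. Mvk, the mevalonate kinase, was 40.7 to 47.0 CPM in control (median 42.1) and 25.2 to 38.5 CPM in model libraries (median 31.5). All model libraries were below all controls, and Mvk fell 1.36-fold (log2 fold change -0.44, SE 0.11, edgeR adjusted p = 0.0153). Smpd1, which makes ceramide from sphingomyelin, fell 1.34-fold.

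All 44 large ribosomal subunit genes had estimates below 0 (median -0.23) and 11 fell, and of 31 small subunit genes 30 were below 0 and 6 fell. Rpl4 was 1198 to 1521 CPM in control (median 1322) and 883 to 1184 CPM in model libraries (median 1072). The groups did not overlap, though the lowest control and the highest model library were close, and Rpl4 fell 1.29-fold (edgeR adjusted p = 0.0268). These calls were not stable. The count of 11 became 0 without control 3, 5 or 6 or model 1, 4, 5 or 6, 2 without model 3, 29 in DESeq2, and 0 with the hair score of each library as a covariate. The count of 6 became 1 without control 3 or model 5 or 6, 2 without control 5 or 6 or model 1 or 3, and 0 without model 4. Ribosomal protein genes have many processed copies in the genome, and how reads were assigned among them is not given.

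Other parts of the same machinery had the same sign. All 20 aminoacyl-tRNA synthetase genes were below 0 and 4 fell, of which Qars was stable. Qars, which charges glutamine tRNA, was 163 to 190.4 CPM in control (median 171) and 116 to 153 CPM in model libraries (median 140.3), without overlap (1.25-fold lower, edgeR adjusted p = 0.0105). The count was 13 without control 2, 2 without control 3, 5 or 6 or model 1, 3, 5 or 6, and 1 without model 4. All 22 ribosome biogenesis genes were below 0 and 1 fell (4.55%, against 5.82% over all genes). This gene was Nhp2, called in 4 of 12 fits without a library. Of 31 constitutive proteasome genes 28 were below 0 and 6 fell, among them the base subunit Psmc5 (1.23-fold lower) and Psmd11 (1.19-fold lower). That count was 14 without control 2, 3 or fewer without each of the other 11 libraries, and 0 without model 4 or 6.

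No splicing factor of 30 passed in edgeR, where 3 had an unadjusted p below 0.05 and DESeq2 called 0. None of 25 DNA replication genes passed, where 0 had an unadjusted p below 0.05 and DESeq2 called 0. All 25 mitosis genes had estimates below 0 with a median of -0.32, and none passed in edgeR, where 0 had an unadjusted p below 0.05 and DESeq2 called 0. Cdc20, an activator of the anaphase-promoting complex, had a mean of 24.6 ± 9.52 CPM in control against 17.4 ± 4.22 CPM in the model (edgeR adjusted p = 0.153). Immediate-early genes, which respond to stimulation and handling of tissue within minutes, rose in 4 of 25 cases (16%, against 14.1% over all genes), and in 2 without control 3 or model 1. The list's median log2 fold change was -0.02, with 14 of 25 estimates below 0. Klf2, a factor of quiescent endothelium and lymphocytes, and the stress factor Atf3 rose 3.46-fold and 3.01-fold, and both were stable. Fos, at 21.0 ± 14.3 and 51.0 ± 21.7 CPM, was called in 2 of 12 fits without a library. In the unfolded protein response list 2 of 24 genes rose (8.33%, against 14.1% over all genes), with Ddit3 up 1.28-fold.

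Collagen genes and the enzymes that process them rose. Of 19 fibrillar and associated collagen genes 13 rose, 12 of them stable, with a median log2 fold change of 1.03. Col3a1, the fibrillar collagen of young and healing dermis, was 1961 to 4027 CPM in control (median 2538) and 4239.8 to 8548 CPM in model libraries (median 4959). The groups did not overlap, and Col3a1 rose 2.02-fold (edgeR adjusted p = 0.00775), the largest gain in CPM among the stable rising genes. Col5a1 and Col5a3 rose 2.09-fold and 3.64-fold, and Col6a5 5.70-fold. Of 21 collagen modification and export genes 13 rose, all 13 stable. Plod1, a lysyl hydroxylase, was 25.3 to 43.7 CPM in control (median 34.1) and 49.8 to 116 CPM in model libraries (median 79.8), without overlap, and rose 2.42-fold (edgeR adjusted p = 0.00133). The collagen chaperone Serpinh1 rose 2.13-fold and the prolyl hydroxylase P3h1 1.93-fold.

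Of 27 basement membrane genes 7 rose, all 7 stable, including the linker genes Nid1 (2.30-fold) and Nid2 (2.23-fold) and the perlecan gene Hspg2 (1.44-fold). Col4a5, a collagen IV chain, was the member that fell (1.39-fold), with no overlap between groups. Of 29 proteoglycan and hyaluronan genes 7 rose, and 12 without control 2. Sdc3, a cell surface heparan sulfate proteoglycan, rose 4.55-fold, Tnfaip6, which links hyaluronan in inflammation, 3.24-fold, and the small matrix proteoglycan Bgn 1.79-fold.

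Genes of forming muscle rose while those of mature fast fibres did not pass. Of 20 myogenic regulator and fusion genes 12 rose, all 12 stable. Myog, the transcription factor that starts muscle differentiation, was 0.419 to 2.74 CPM in control (median 0.703) and 7.67 to 37.8 CPM in model libraries (median 16.2). Control 2 was the highest control and model 4 the highest model library, and the groups did not overlap. Myog rose 18.4-fold (edgeR adjusted p = 0.000553), and 28.1-fold without control 2. Mymx, a membrane protein of myoblast fusion, was at most 0.142 CPM in control and 1.3 to 4.55 CPM in model libraries, and rose 33.6-fold.

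The acetylcholine receptor genes of muscle rose too, with Chrnd and Chrna1 up 13-fold and 5.44-fold, in a list of 20 genes linked to denervation of which 8 rose. Chrng, whose promoter is printed above, had no counts in control and a mean of 4.05 ± 1.92 CPM in the model group, at least 431-fold higher taking 3 counts summed over the controls as the lower limit. Fbxo32, a ubiquitin ligase of muscle atrophy, was the member that fell (1.33-fold, edgeR adjusted p = 0.0498), and its call held in 2 of 12 fits without a library. Of 15 developmental sarcomere genes 10 rose, including Tnnc1, the slow and cardiac troponin C, at 38.5-fold. None of 24 mature fast muscle genes passed in edgeR (median -0.36), where 3 had an unadjusted p below 0.05 and DESeq2 called 2. Their summed level was 6221 to 20412 CPM in control and 2616 to 19736 CPM in model libraries, and the ranges overlapped. The part of muscle content in these results was not tested.

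Of 18 Schwann cell and myelin genes 5 rose (27.8%, against 14.1% over all genes), and 9 rose without control 2. In the same list 2 fell, Erbb3 and Pou3f1 (11.1%, against 5.82% over all genes), neither of them stable. The summed level of the list was 613 to 784 CPM in control and 631 to 771 CPM in model libraries, and the ranges overlapped. Gap43, a growth-associated protein of regenerating axons and Schwann cells, was 0.104 to 0.692 CPM in control (median 0.275) and 2.14 to 5.03 CPM in model libraries (median 2.69). The groups were well apart, and Gap43 rose 8.94-fold (edgeR adjusted p = 0.000582). Ncam1, an adhesion molecule of immature Schwann cells and of muscle, rose 2.27-fold, Pmp22 1.88-fold and the myelin gene Mag 2.72-fold.

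Of 30 genes of the FGF, IGF and PDGF systems 9 rose. Igf1 was 21.1 to 36.4 CPM in control (median 26.2) and 38.2 to 117 CPM in model libraries (median 64.5), without overlap, and rose 2.54-fold (edgeR adjusted p = 0.00223). Igf2 rose 3.15-fold and Pdgfc, a mitogen of fibroblasts, 2.46-fold. In the TGF-beta and BMP list of 36 genes 5 rose (13.9%, against 14.1% over all genes), with the receptor genes Tgfbr2 (1.92-fold), Eng (1.89-fold) and Acvrl1 (1.77-fold) among them, and 5 fell, including Bmpr1a (1.36-fold lower). The falling count was 8 without control 2 and 1 to 3 without each of control 1, 3, 4, 5 and 6 and model 1 to 4. Of 19 Notch genes 4 rose (21.1%, against 14.1% over all genes), all stable. These were the endothelial ligand Dll4 (2.15-fold), Notch4 (1.84-fold), the fringe enzyme Mfng (2.41-fold) and the effector Rbpj (1.65-fold). In the same list 3 fell (15.8%, against 5.82% over all genes). The ligands Jag1 (1.27-fold lower) and Jag2 (1.32-fold lower) were among them, called in 1 and 4 of 12 fits without a library. The falling count was 6 without control 2, 0 or 1 without each of the other libraries except model 5.

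Wnt genes, which maintain hair follicle growth and epidermal renewal, fell in 9 of 37 cases, with 29 estimates below 0 and a median of -0.36. Wnt4 was 46.2 to 76.6 CPM in control (median 61.5) and 29.0 to 49.4 CPM in model libraries (median 39.7). The groups overlapped slightly, and Wnt4 fell 1.58-fold (edgeR adjusted p = 0.0112). The secreted inhibitor Sfrp1 fell 1.71-fold without overlap, whereas its relative Sfrp2, a product of fibroblasts, rose 2.38-fold. The count of 9 was 15 without control 2, 5 without control 1, 3 without control 3, 5 or 6 or model 1, 4 without model 6 and 2 without model 4. Of 13 Hedgehog genes 3 fell (Gli1, Gli3 and Smo), none stable and 0 with the hair score as a covariate. Summed hair genes were 41143 CPM or more in the controls other than control 2 and at most 33191 CPM in model libraries, and their part in the Wnt and Hedgehog values was not tested beyond that covariate, with which 7 Wnt genes fell.

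In edgeR's fit of all 12 libraries, the list of tight, gap and adherens junctions had the highest share falling. These junctions seal the epidermis and hold keratinocytes together. Of 28 genes 14 fell (50%, against 5.82% over all genes), 26 had estimates below 0, and the median log2 fold change was -0.53. Melanocyte genes came next, with 5 of 11 falling (45.5%), 0 of them stable, and a median of -2.74. In DESeq2 their share was 81.8%, above the 78.6% of the junction list. Without control 2 the junction share was 67.9%, below the 71.4% of the hair shaft list and the 69.2% of the melanocyte list. Cdh1, the E-cadherin of adherens junctions, was 508 to 557 CPM in control (median 532) and 256 to 472 CPM in model libraries (median 362). All model libraries were below all controls, with model 1 lowest and model 5 highest among them, and Cdh1 fell 1.47-fold (log2 fold change -0.55, SE 0.14, edgeR adjusted p = 0.0157). Marveld2, a tight junction protein at tricellular contacts, fell 1.58-fold. Cldn5, the claudin of endothelium, was the member that rose (2.23-fold, edgeR adjusted p = 0.0159).

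The falling junction count was 6 stable genes, namely Ocln, Cldn1, Marveld2, Cdh1, Esrp1 and Esrp2. It was 8 without control 3, 7 without control 5 or 6, 9 without model 1 or 6, 6 without model 4 and 22 in DESeq2. Esrp1 and Esrp2 encode the splicing regulators of epithelial cells and were placed in this list as epithelial identity genes. Esrp1 was 286 to 324 CPM in control (median 311) and 138 to 249 CPM in model libraries (median 206), and Esrp2 205 to 252 CPM (median 229) and 91.3 to 179 CPM (median 151). Neither overlapped between groups, and they fell 1.58-fold and 1.6-fold (edgeR adjusted p = 0.00610 and 0.00821). Without them, 12 of 26 genes fell.

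Of 15 basal keratinocyte genes 1 fell (Tfap2c), and of 24 suprabasal and cornified genes 1 (Ivl). These were 6.67% and 4.17%, against 5.82% over all genes, and the medians were -0.26 and -0.09. Tfap2c and Ivl were called in 9 and 3 of 12 fits without a library. Without control 2, 4 basal and 3 suprabasal genes fell. Among 52 tested genes of the Krt family 37 had estimates below 0 (median -0.59) and 1 fell, and among 52 of the Krtap family, keratin-associated proteins of hair, 51 were below 0 (median -1.3). None of the Krtap genes passed in edgeR, where 9 had an unadjusted p below 0.05 and DESeq2 called 5. Without control 2, 16 Krt and 29 Krtap genes fell. Summed basal genes were 13079.5 to 20194 CPM in control and 9212 to 18625 CPM in model libraries, so the groups overlapped, and the part of keratinocyte content in the junction result was not tested. Grhl1 was 287 to 387 CPM in control (median 358) and 166 to 272 CPM in model libraries (median 238). The groups did not overlap, and Grhl1 fell 1.54-fold (edgeR adjusted p = 0.0108). Receptors of the EGF family had the same direction in part, with Erbb2 falling 1.42-fold without overlap and Erbb3 1.37-fold. In that list 4 of 16 genes fell, 7 without control 2, 2 without control 5 and 1 without model 4.

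Ranked by fold, the stable falling genes began with Slc38a3. Slc38a3, a glutamine transporter, was 16.8 to 37.0 CPM in control (median 31.3) and 4.72 to 16.9 CPM in model libraries (median 12), and fell 2.70-fold (edgeR adjusted p = 0.0136). Lrrc20, a leucine-rich repeat gene, fell 2.66-fold and Hephl1, a copper ferroxidase of hair follicles, 2.23-fold. In all 3 genes the groups overlapped, with control 2 the lowest control and the only one within the range of the model libraries. Among the 10 stable falling genes with the greatest loss of CPM were Cdh1, Grhl1, Esrp1, S100a14 and S100a16, calcium-binding proteins of epithelia (1.71-fold and 1.73-fold lower), the membrane protein Emp2 (1.49-fold) and the kinase gene Limk2 (1.59-fold). By gain of CPM, Col3a1 was followed by Fasn, the fatty acid carrier Fabp4 (3.31-fold), the lipase Lpl (3.35-fold), Psap, the adipocyte-secreted complement protease Cfd (3.55-fold), Vim (2.96-fold), Ftl1, B2m and C3. Model 1 was highest for Fabp4 (5939.7 CPM, next 2473) and Lpl (4014 CPM, next 1629), and without it they rose 2.21-fold and 2.25-fold. Fabp4 in model 5, at 519 CPM, lay below every control, and it was not called with the hair score as a covariate (adjusted p = 0.0592) or with a replicate block (adjusted p = 0.0925). The intermediate filament gene Vim was 250.3 to 549 CPM in control (median 335) and 709 to 1349.6 CPM in model libraries (median 1209.7), without overlap.

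Gene families named by a shared symbol stem were counted without regard to function, for the 218 families with at least 10 tested genes. All 19 genes of the Ifi family and all 11 of the Gbp family of interferon-induced GTPases rose, against 14.1% of all genes, followed by 11 of 12 Tlr genes and 10 of 12 Ms4a genes. The highest shares falling were 5 of 10 for the stem Hoxb, of positional identity genes of the trunk, and 5 of 11 for Fzd, of Wnt receptors. Both stems also take in opposite-strand genes, and Hoxb5os and Fzd10os were among those that fell. Of the falling calls 0 in Hoxb and 1 in Fzd were stable. Hoxb7 and Hoxb6 fell 1.45-fold and 1.42-fold with no overlap, called in 9 and 8 of 12 fits without a library.

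Rising genes also lay side by side in the genome. In windows of 10 neighbouring tested genes (GRCm38), all 10 rose at chromosome 1, 173331892 to 173802755, which holds Aim2 and the Ifi200 genes, and at chromosome 19, 11047612 to 11530403, the Ms4a cluster of membrane proteins. In the latter Ms4a4c was 0.587 to 2.86 CPM in control (median 1.62) and 12.8 to 131 CPM in model libraries (median 81.0), and rose 42.9-fold (edgeR adjusted p = 0.000548). All 10 also rose at chromosome 19, 34290647 to 34747493 (the Ifit genes with Fas, Ch25h and Lipa), chromosome 6, 122921848 to 124330529 (Clec4 lectins), chromosome 7, 105823257 to 106644646 (very large GTPases around Gvin1) and chromosome 11, 48865245 to 49187089 (Irgm1 and the Tgtp GTPases). Neighbours in these windows are often copies of each other that can share reads, so their counts are not independent. In Ifi206 the control values were 0 to 0.0598 CPM and the model values 0.709 to 3.97 CPM, and in Ifi214 0 to 0.179 CPM and 0.561 to 8.2 CPM.

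The window with the most falling genes, 7 of 10, lay at chromosome 3, 108379277 to 108722331, with Celsr2, a cadherin of planar cell polarity, Gpsm2, which orients the mitotic spindle, and the seryl-tRNA synthetase gene Sars. Celsr2 was 269 to 354 CPM in control (median 313) and 139 to 249 CPM in model libraries (median 219). The groups did not overlap, and Celsr2 fell 1.51-fold (edgeR adjusted p = 0.0143). Gpsm2 fell 1.4-fold without overlap.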

How the data were processed

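RNA-seq read counts per gene, deposited by the authors in 1 table for the whole series beside FPKM and TPM values that the authors computed, were taken for 6 control and 6 model skin libraries, matched by sample title. Per the submitters' processing notes, bcl2fastq 2.20.0, Trimmomatic, HISAT2 2.1.0 and StringTie 2.1.3b were used with GRCm38 (mm10). How reads were counted, the strand setting and the handling of reads shared between gene copies are not given in the sources used here. An alternative test used the deposited TPM values, and the FPKM values were not tested.

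Genes were kept by edgeR's filterByExpr, scaled by TMM and tested with edgeR 4.0.16 in R 4.3.3 (robust quasi-likelihood fit on the 12 libraries, no covariate, Benjamini-Hochberg adjustment over 19526 genes). Alternatives used DESeq2 1.42.0, limma 3.58.1, other scaling and filters, a block on the replicate number, all 24 libraries, and each library left out in turn. Leaving out control 2 with model 2, and a hair score as covariate, were chosen after seeing the data. No pair of libraries agreed within sampling noise. The gene lists and the genes named were chosen with earlier results of these data known. Named genes were the 12 stable genes with the largest fold and the 10 with the largest CPM difference in each direction, up to 4 called genes per direction and list, up to 4 members of leading families, genes of leading windows, and genes without counts in control. Motif and window counts are descriptions. Some genes that this rule names are not reported here.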

Additional observations from a re-analysis of the deposited data

Results flagged for a closer look

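Within each group of 6 libraries, a gene is listed here where the highest or lowest library lay farther from its nearest neighbour, relative to the range, than Dixon's test allows at 95%. Of 346 groups tested 32 met this, and chance gives about 1 in 20. CPM values are followed by those of the nearest other library. Control 2 was highest of its group for Chrnd (0.765, next 0.337), Col4a5 (54.9, next 45.1), Klrk1 (2.53, next 1.27), Myog (2.74, next 0.834) and Stat2 (46.4, next 32.2). Control 2 was lowest of its group for Gsdma (195, next 423), Jag1 (135, next 184), Jag2 (141, next 162), Limk2 (233, next 309) and Psmd11 (112, next 127). Control 5 was highest of its group for Atf3 (15.5, next 6.91) and Fos (49.6, next 19.1). Model 1 was highest of its group for B2m (1645, next 1116), Cldn5 (26.5, next 14.7), Fabp4 (5939.7, next 2473), Fasn (7586, next 2858), Lpl (4014, next 1629) and Thrsp (1553, next 533). Model 1 was lowest of its group for Nhp2 (36.0, next 43.2) and Psmc5 (118, next 134). Model 2 was highest of its group for Cd22 (56.2, next 6.12), Cd79b (20.9, next 2.26), Cd80 (7.70, next 4.59), Coro1a (207, next 101), Ighm (123, next 39.9), Il7r (55.6, next 26.6), Nfkbie (19.6, next 13.8) and Rac2 (115, next 52.1). Model 4 was highest of its group for Chrna1 (20.1, next 9.93) and Myog (37.8, next 18.0). Model 5 was lowest of its group for Adar (61.4, next 76.7) and Gusb (29.4, next 62.9).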

How the results depend on the processing

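The number falling depended on the processing more than the number rising. Against 1137 in edgeR, 2398 genes fell in DESeq2, 3404 with all 24 libraries in 1 fit (6820 called), 747 without a filter, 449 and 460 with limma on log2 TPM with a pseudocount of 0.1 and 1, and 677 with the hair score as a covariate. Without control 2 and model 2, an alternative chosen after seeing the data as was the hair score, 2803 fell and 6734 were called. With at least a 2-fold change required, 1739 were called, 1642 rising and 97 falling, because fewer genes can pass. Otherwise the cause was not tested. With 1 library left out, 2564 to 6278 genes were called, 2141 to 3724 rising and 308 to 2554 falling. The highest called count was without control 2, and the lowest, 2564 and 2586, without control 5 and 3. Same-numbered libraries correlated at -0.51 to 0.26 in their deviations and none correlated best with its own number, so the numbers were not taken as pairs, and with a replicate block 540 genes fell and 2264 rose. Of the 171 named genes called, 141 kept their call under every alternative that gave them an adjusted p (24 for 164 genes, 22 or 23 for 7), 30 lost it under at least 1, and none changed direction. Some of these named genes were chosen because they were called in all 12 fits without a library. Others were chosen for a small p in their list or family. Those fits are among the alternatives, so the count of 141 follows in part from the choice of genes. Depth covers counting error only, and values under about 1 CPM rest on few reads.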

Other observations

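Small nucleolar RNA genes, which polyadenylated libraries sample poorly, had estimates below 0 in 118 of 132 cases, with a median log2 fold change of -0.30. In that class 1 gene rose and 1 fell (0.758% each, against 14.1% and 5.82% over all genes). Among 1075 pseudogenes 38 rose (3.53%) and 47 fell (4.37%), both below the shares over all genes.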
